A study of Rattus norvegicus with 12 samples.

Results

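Hearts of infarcted rats treated with YQFM were compared with uninjured Sham hearts, to ask which miRNAs still differed from the uninjured heart after treatment. YQFM is Yiqifumai injection, prepared from Panax ginseng, Ophiopogon japonicus and Schisandra chinensis. The comparison used the 8 arrays whose titles name the YQFM group (n = 4 rats) or the Sham group (n = 4 rats), of 12 arrays in all. All rats were male Wistar rats of no stated genetic modification, and the methods place the tissue in the left ventricle near the infarction area, without saying which part was taken from Sham hearts. YQFM rats had the left anterior descending coronary artery tied and later received YQFM daily by intraperitoneal injection, begun weeks after the operation. Sham rats went through the same surgery without the ligature and received saline. The other 4 arrays came from MI rats, which had the ligature and saline, and these entered the fit for the spread between rats. Infarcted rats had been selected by electrocardiogram and by ejection fraction soon after surgery, so that the treated hearts stand for a chosen range of injury. The treated group therefore differed from Sham both in the infarction and in the drug, and these cannot be told apart in this pair. The sample labels give the tissue only as heart, and ages are not given in the sources used here.

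MiRNAs are short RNAs that pair with messenger RNAs, mainly through a seed at bases 2 to 8, and lower the output of the messengers they bind. The healthy heart muscle cell is rich in miR-1, miR-133, miR-208a, miR-499 and the miR-30 family, while miR-21, miR-199a and miR-214 are known from fibroblasts and from scar tissue. MiRNAs are often made together from a shared precursor or from the intron of a host gene, such as miR-208a from the gene of the alpha myosin heavy chain, Myh6. In bulk tissue, fewer cells of a type and less RNA per cell cannot be told apart.

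Each rat had its own single-color Agilent array of 758 rat miRNAs. The 4 Sham arrays and YQFM replicates 2 to 4 lay on 1 slide, and YQFM replicate 1 lay on another slide together with MI replicate 4. Results are therefore given with all 8 arrays and with the 7 arrays of the shared slide. On that slide the first position code was 2 for all Sham arrays and 1 for all YQFM arrays, so that this code and group cannot be told apart there. MI replicates 1 to 3 lay on a slide of their own. The labels conflicted for 2 arrays: the source name of MI replicate 4 reads as a Sham heart and that of Sham replicate 4 as a YQFM heart, while title, description and group entry give the groups followed here. The source name of YQFM replicate 1 also gives the YQFM group, under another number. Median correlations were taken over the 261 tested miRNAs, which share probes and scaling. YQFM replicate 1 had 0.982 with the MI arrays, 0.971 with the other YQFM arrays and 0.968 with Sham. YQFM replicates 2 to 4 had 0.988 to 0.991 with their own group and 0.987 to 0.988 with Sham, a small margin. Sham arrays had 0.981 to 0.988 with their own group and 0.981 to 0.988 with YQFM. MI replicate 4 had 0.987 with Sham, 0.986 with YQFM and 0.978 with the other MI arrays. Without the 2 arrays with conflicting labels, 0 miRNAs were called and 23 had an unadjusted p under 0.05, all lower in YQFM. Between 233 and 253 miRNAs were detected on the Sham arrays and between 242 and 265 on the YQFM arrays. The means were 242.5 ± 9.15 (SD, n = 4) and 253.5 ± 10.4 (SD, n = 4), and an exact permutation test of the difference gave a two-sided p of 0.171, where 4 arrays against 4 allow no p below 0.0286. The tissue label was borne out by its markers, since miR-1-3p, the main miRNA of striated muscle, lay between 12.12 and 12.67 in Sham and between 11.95 and 12.28 in YQFM on the log2 scale of the scaled signal.

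No miRNA was called different between YQFM and Sham. After scaling, 261 miRNAs were tested with limma over all 12 arrays, and 0 of them (0.0%) passed an adjusted p threshold of 0.05, with a smallest adjusted p of 0.723. At an unadjusted p under 0.05 there were 16 miRNAs (6.13%), of which 12 (4.6%) were lower and 4 (1.53%) higher in YQFM. The count of 16 fell to 6 without YQFM replicate 2, 7 without Sham replicate 3 and 10 without Sham replicate 1 or 4, and it was 9, with 7 higher, when arrays were scaled to the percentile over all miRNAs and 8, with 5 higher, with quantile normalization. The methods' t-test on the same values counted 23 under that threshold, all lower, and 0 after Benjamini-Hochberg adjustment. The same contrast for untreated infarction, MI minus Sham, called 29 of 261 miRNAs (11.1%) in the same fit. MI and Sham arrays shared no slide, and whether YQFM differed from Sham less than MI did was not tested.

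A missed threshold does not show equal levels, so the size of the differences was bounded by their 95% confidence intervals. For 241 of 261 miRNAs (92.3%) the interval of the YQFM to Sham ratio lay within 2-fold in either direction, and for 208 of the 221 miRNAs detected on all 8 arrays. Among those 221 the ratios ran from -0.59 (0.663-fold) for miR-1224 to 0.92 (1.89-fold) for miR-466c-3p on the log2 scale. The 20 miRNAs outside the 2-fold bound included miR-1224, miR-702-3p, the miR-466 pair described below, and miR-21-5p, miR-199a-5p, miR-199a-3p, miR-214-3p, miR-31a-5p, miR-140-3p, miR-146b-5p and miR-3588. No interval lay wholly beyond 2-fold. These counts hold for the main processing, and clearly fewer intervals lay within 2-fold with the total gene signal or the authors' processed values.

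On the shared slide alone, 0 of 259 miRNAs (0.0%) were called by limma (smallest adjusted p = 0.479), and 14 (5.41%) had an unadjusted p under 0.05. All 14 were lower in YQFM, and 240 of 259 intervals (92.7%) lay within 2-fold. With slide as a block over all 12 arrays, 0 of 261 (0.0%) were called and 18 (6.9%) had an unadjusted p under 0.05, of which 1 (0.383%) was higher. Leaving out YQFM replicate 1 alone gave 0 of 261 called (0.0%) and 16 (6.13%) at an unadjusted p under 0.05. The 5 miRNAs with the smallest p on the shared slide were miR-1224, miR-378b, miR-19b-3p, miR-30e-5p and miR-22-3p. The log2 signal of the middle of the distribution also moved: the median ratio over all tested miRNAs was -0.11 (0.926-fold), and it was 0.00 when arrays were scaled to the percentile over all miRNAs and -0.04 with quantile normalization. Ratios below are best read against this shift, which the choice of scaling sets.

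The mature sequences of the miRNAs on which the comparison turned are given from RefSeq (rat build GRCr8), 5′ to 3′, with the seed in capitals. 685 of the 758 miRNAs of the array, and 237 of the 261 tested, had a mature sequence there. The first set holds miRNAs that were higher on YQFM replicate 1 than on every other YQFM or Sham array. MiR-199a-5p, miR-199a-3p and miR-214-3p lie close together on chromosome 13 within the span of Dnm3, and both arms of miR-140 lie within Wwp2 on chromosome 19.
miR-21-5p: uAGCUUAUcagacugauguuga
miR-199a-5p: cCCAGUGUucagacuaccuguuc
miR-199a-3p: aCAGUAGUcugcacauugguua
miR-214-3p: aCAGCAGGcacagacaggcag
miR-31a-5p: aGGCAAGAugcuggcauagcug
miR-140-3p: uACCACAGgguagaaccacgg
miR-146b-5p: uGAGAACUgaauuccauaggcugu
miR-3588: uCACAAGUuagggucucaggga

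The next set holds members of the miR-30 family, whose mean signals lay below Sham in YQFM, though none passed the adjusted threshold. They share 1 seed, and miR-30a-5p and miR-30e-5p differ at 1 base. MiR-30e and a copy of miR-30c lie within the span of Nfyc on chromosome 5. MiR-30b-5p and miR-30d-5p are named only.
miR-30a-5p: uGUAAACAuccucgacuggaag
miR-30c-5p: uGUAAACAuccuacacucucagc
miR-30e-5p: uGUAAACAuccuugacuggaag

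The last set holds other miRNAs with small unadjusted p, each with a seed of its own. MiR-208a-5p lies within the span of Myh6 on chromosome 15. The pair of miR-466 sequences, both within Sfmbt2 on chromosome 17, share a run of 12 bases, so that their probes may not be independent.
miR-208a-5p: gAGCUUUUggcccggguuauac
miR-22-3p: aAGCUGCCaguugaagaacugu
miR-19b-3p: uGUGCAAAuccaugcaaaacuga
miR-423-5p: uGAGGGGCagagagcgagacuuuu
miR-1224: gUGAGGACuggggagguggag
miR-466c-3p: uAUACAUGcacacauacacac
miR-466b-2-3p: aUAUACAUacacacauacaca

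The miRNAs of fibroblasts and scar separated the treated hearts from each other more than from Sham. MiR-21-5p, which is abundant in cardiac fibroblasts, was 7.93, 7.40, 7.96 and 7.94 on the Sham arrays and 9.34, 7.93, 7.82 and 7.93 on YQFM replicates 1 to 4 (log2 scaled signal). YQFM replicate 1 was 1.39 above the highest of the other 7 arrays, and the other treated arrays lay within the Sham range. On Sham replicate 1 and YQFM replicates 2 and 4 miR-21-5p was itself the miRNA at the scaling percentile, which fixed its value there. The log2 ratio of YQFM to Sham was 0.45 ± 0.36 (SE, adjusted p = 0.723 by limma, n = 4 and 4), with an interval from -0.32 to 1.21. On the shared slide it was 0.09, from -0.27 to 0.44.

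The partners miR-199a and miR-214 were also highest on YQFM replicate 1. MiR-199a-5p was 4.03, 3.79, 4.36 and 3.81 in Sham and 6.32, 4.44, 4.13 and 4.47 in YQFM. MiR-199a-3p was 6.92, 6.65, 7.22 and 6.78 in Sham and 8.74, 7.13, 6.92 and 7.12 in YQFM. In both, YQFM replicate 1 was the highest array, 1.85 and 1.52 above the next highest. For miR-199a-3p, YQFM replicates 2 to 4 lay within the Sham range. For miR-199a-5p, YQFM replicates 2 and 4, at 4.44 and 4.47, also lay above the highest Sham array, at 4.36. MiR-214-3p was 7.21, 6.59, 7.16 and 6.83 in Sham and 8.59, 6.99, 6.94 and 7.04 in YQFM, with the same single high array. The log2 ratios with all 8 arrays were 0.85 ± 0.41 (SE), 0.58 ± 0.36 and 0.44 ± 0.34, and on the shared slide 0.35, 0.16 and 0.04. None passed the adjusted threshold in either fit, and the shared-slide intervals reached at most 0.73, 0.50 and 0.41.

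In all, 9 miRNAs were at least 1 log2 unit higher on YQFM replicate 1 than on each of the other 7 arrays, and no other array of the 8 had any such miRNA. No array had a miRNA that much lower than the others. The list was chosen by these values, so they are a description with no test. Besides the miRNAs above it held miR-31a-5p, miR-140-3p, miR-140-5p, miR-146b-5p, which acts on NF-kB signaling, and miR-3588. MiR-31a-5p was at the floor of 2.38 on Sham replicates 1, 2 and 4, at 3.44 on Sham replicate 3, and at 5.91, 3.43, 2.38 and 3.52 in YQFM. MiR-140-3p was 5.18, 4.90, 5.32 and 4.75 in Sham and 6.73, 4.87, 4.73 and 4.86 in YQFM. Its log2 ratio turned from 0.26 with all arrays to -0.22 on the shared slide, and that of miR-140-5p from 0.13 to -0.28.

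MiR-146b-5p was 2.70, 2.38, 2.45 and 2.64 in Sham and 4.16, 2.58, 2.38 and 2.86 in YQFM. It was well above background on 0 Sham and 2 YQFM arrays, and its log2 ratio was 0.45 ± 0.34 (SE) with all arrays and 0.07 on the shared slide, so that the difference rested on YQFM replicate 1. MiR-3588 was 3.86, 3.39, 4.65 and 3.89 in Sham and 5.66, 3.94, 4.03 and 4.02 in YQFM. Its sequence is the exact reverse complement of miR-125b-5p, which the annotation places at the same bases of chromosome 11 on the other strand. MiR-125b-5p was also highest on YQFM replicate 1, at 10.04 against 8.91 to 9.19 in Sham and 8.97 to 9.04 on the other treated arrays.

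**Figure D1:**
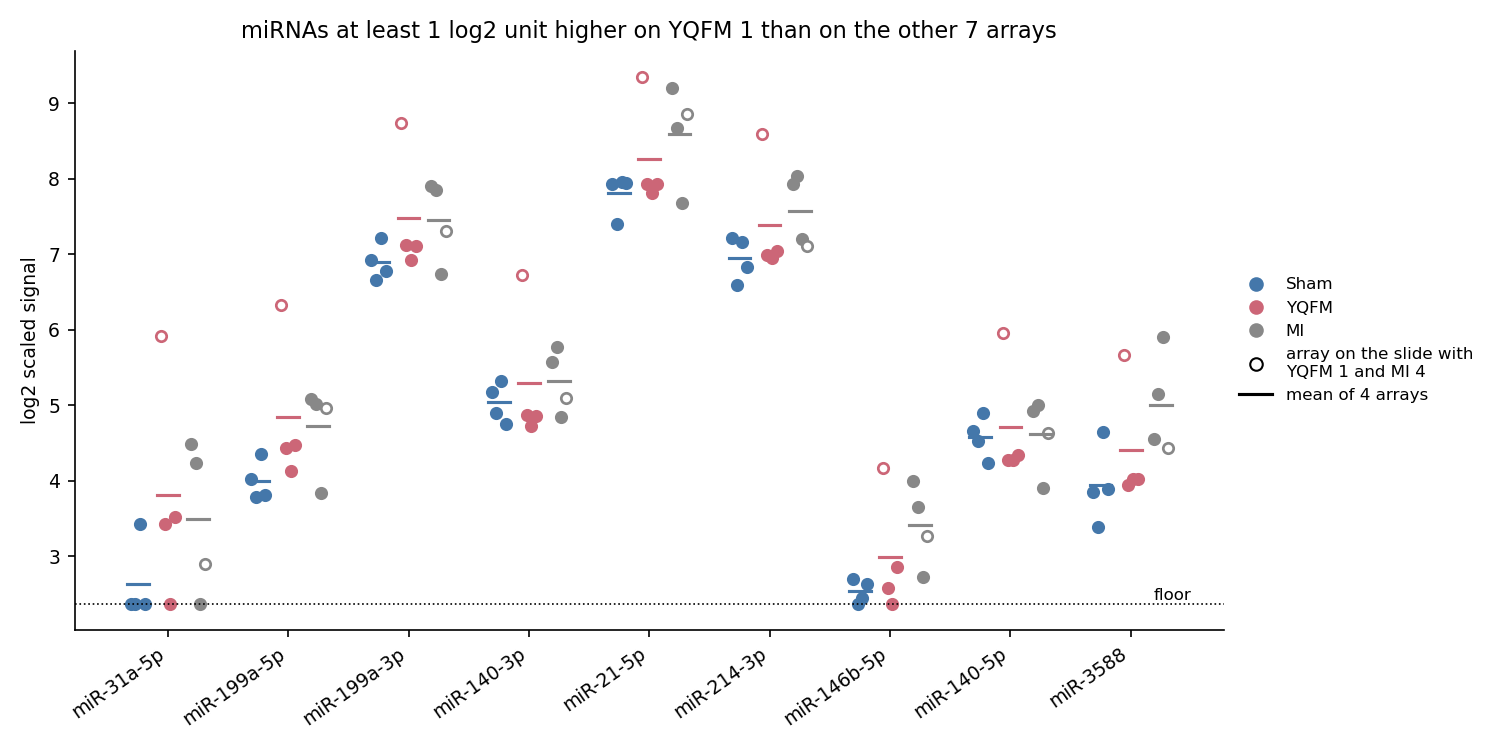
Log2 scaled signal of each array for the 9 miRNAs that were at least 1 log2 unit higher on YQFM replicate 1 than on the other 7 Sham and YQFM arrays, with MI arrays beside them. Points are single rats, bars are means of 4, open points are YQFM 1 and MI 4, which shared a slide, the other MI arrays lay on a slide of their own, and the dotted line is the floor. YQFM replicates 2 to 4 lie near Sham, for example at 7.82 to 7.93 against 7.40 to 7.96 for miR-21-5p.

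The high level on YQFM replicate 1 kept its place as the highest of the 8 arrays for all 9 miRNAs with scaling over all miRNAs, quantile normalization, no scaling and normexp background correction. This array also had the most detected miRNAs of the 8 (265) and was the only one of them on its slide, and the part of either in the result was not tested. MI replicate 4, the other array of that slide, was lower for each of these miRNAs, for example 8.85 for miR-21-5p, 4.96 for miR-199a-5p and 7.10 for miR-214-3p. The untreated infarcted rats were themselves spread, with miR-21-5p at 9.20, 8.67 and 7.67 on MI replicates 1 to 3. The median SD between rats over all tested miRNAs was 0.193 in Sham, 0.227 in YQFM and 0.126 among YQFM replicates 2 to 4.

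Taken as a list, the fibroblast and scar miRNAs had 4 of 6 members tested, 0 called in either direction, and a median ratio of 0.52, against -0.11 over all tested miRNAs. On the shared slide the median was 0.12, against -0.14 over all. The summed signal of the list was 8.61 to 9.16 in Sham, 10.60 on YQFM replicate 1, 8.96 to 9.10 on YQFM replicates 2 to 4 and 8.92 to 10.12 in MI (log2). The single treated array therefore lay above every MI array, and the other treated arrays lay within the Sham range.

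**Figure D2:**
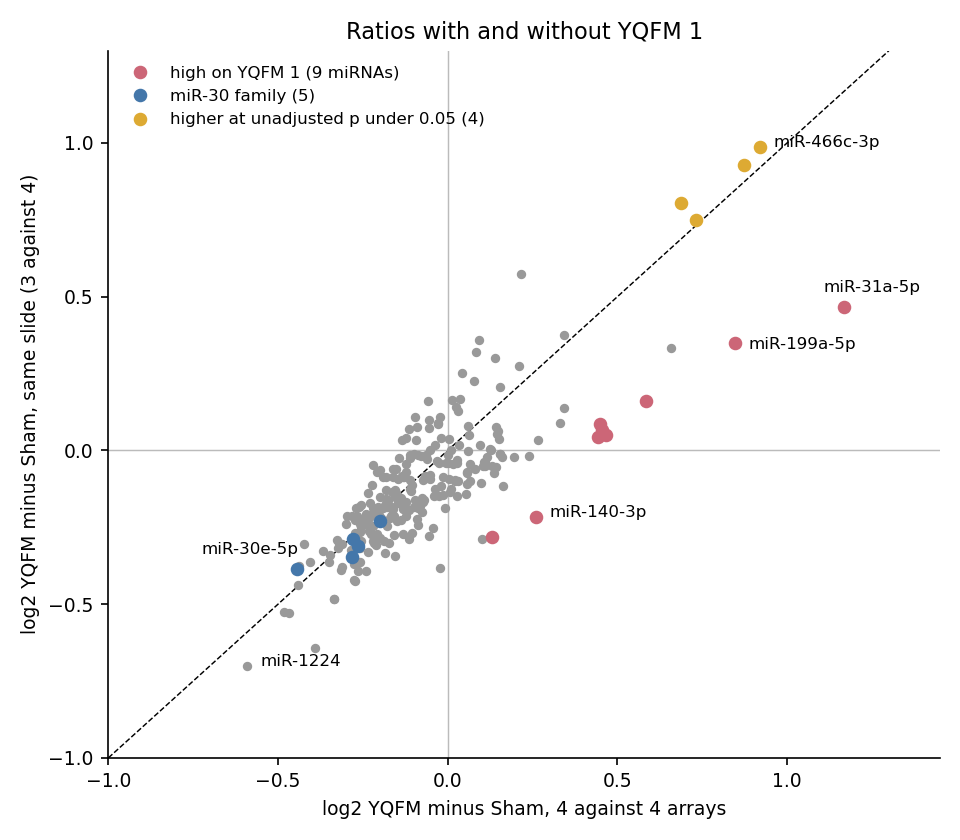
Log2 ratio of YQFM to Sham for each tested miRNA with all 8 arrays (x axis) and with the 7 arrays of the shared slide (y axis), with the line of equality dashed. The 9 miRNAs high on YQFM replicate 1 lie below the line, as their choice requires, since the y axis leaves that array out. MiR-140-3p, for example, lies at 0.26 and -0.22, while the miR-30 family lies near the line.

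The miR-30 family had lower means in YQFM than in Sham hearts with and without YQFM replicate 1, and no member was called (adjusted p = 0.723 for each by limma). These miRNAs are abundant in heart muscle cells and are known to repress connective tissue growth factor. MiR-30e-5p was 7.66, 7.69, 7.73 and 7.79 in Sham and 7.10, 7.12, 7.42 and 7.46 in YQFM, with no overlap between the groups. Its log2 ratio was -0.44 ± 0.16 (SE, unadjusted p = 0.0174, adjusted p = 0.723 by limma), with an interval from -0.80 to -0.09. On the shared slide it was -0.39, from -0.66 to -0.12.

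MiR-30d-5p was 7.43, 7.34, 7.36 and 7.36 in Sham and 7.13, 7.01, 7.23 and 7.01 in YQFM, also without overlap. Its ratio was -0.28 ± 0.11 (SE), and on the shared slide -0.29. The ratios of miR-30a-5p, miR-30b-5p and miR-30c-5p were -0.20, -0.28 and -0.27, and only miR-30a-5p of these had groups that did not overlap. Of all tested miRNAs, 16 of 261 (6.13%) lay wholly below Sham in this way. None of the 16 did so with scaling over all miRNAs or with quantile normalization. All 5 members had an interval within 2-fold, and 2 of 5 were lower at an unadjusted p under 0.05, against 12 of 261 (4.6%) of all tested miRNAs. The median of the family was -0.28 with all arrays, -0.31 on the shared slide, -0.16 with scaling over all miRNAs, -0.23 with quantile normalization and -0.20 with normexp, against medians over all tested miRNAs of -0.11, -0.14, 0.00, -0.04 and 0.00. The ratio of every member was below 0 under all alternatives run, and with all arrays 183 of 261 tested miRNAs (70.1%) had a ratio below 0.

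Across all miRNAs, 16 (6.13%) had every YQFM array below every Sham array, and 0 (0.0%) had every YQFM array above. Their ratios were small, from -0.44 to -0.18. Besides miR-30a-5p, miR-30d-5p and miR-30e-5p they were miR-19b-3p, miR-208a-5p, miR-378b, miR-22-3p, miR-486, miR-678, miR-652-5p, miR-3120, miR-150-3p, miR-345-3p, miR-345-5p, miR-3085 and miR-181d-5p. Without YQFM replicate 1 the count was 21 (8.05%) below and 0 (0.0%) above, and it can only grow when a treated array is left out. None of the 16 kept this separation when arrays were scaled to the percentile over all miRNAs, where 1 other miRNA lay wholly below Sham and 1 wholly above, or with quantile normalization, where 3 others lay below and 1 above. With normexp 10 lay below, of which 7 were among the 16, and 0 above.

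No heart muscle miRNA was called in YQFM hearts. Of 13 listed, 8 were tested and 0 called, with a median ratio of -0.18 (range -0.42 to -0.11), against -0.11 over all tested miRNAs. The summed signal was 13.32 to 13.73 in Sham and 13.19 to 13.51 in YQFM (log2), and all 8 intervals lay within 2-fold. The lowest member was miR-208a-5p, the minor arm of the miRNA made from the Myh6 gene. It was 4.18, 4.16, 3.91 and 3.95 in Sham, 3.27, 3.88, 3.64 and 3.72 in YQFM and 3.07, 2.81, 2.83 and 3.32 in MI. The treated values lay between those of Sham and MI apart from YQFM replicate 1, which lay within the MI range. The ratio of YQFM to Sham was -0.42 ± 0.16 (SE, unadjusted p = 0.0193, adjusted p = 0.723 by limma) and -0.31 on the shared slide, but 0.00 with normexp. The other arm, miR-208a-3p, was well above background on 1 Sham and 0 YQFM arrays and was not tested.

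Among the 4 miRNAs of the metabolic and failure-linked list, 2 were lower at an unadjusted p under 0.05, against 12 of 261 (4.6%) of all tested miRNAs. The others, miR-378a-5p and miR-423-3p, had ratios of -0.19 and -0.09. MiR-22-3p, a regulator of cardiac hypertrophy, was 10.82, 10.68, 10.80 and 10.82 in Sham and 10.45, 10.34, 10.52 and 10.57 in YQFM. MiR-423-5p, known as a circulating marker of heart failure, was 5.97, 5.76, 6.02 and 6.01 in Sham and 5.40, 5.38, 5.55 and 5.80 in YQFM. The groups did not overlap for miR-22-3p, which is among the 16 above, and for miR-423-5p only YQFM replicate 4 rose above the lowest Sham array. Their ratios were -0.31 ± 0.12 and -0.41 ± 0.15 (SE), and -0.30 and -0.36 on the shared slide. With scaling over all miRNAs the ratios were -0.19 and -0.29, with an unadjusted p of 0.133 and 0.144 by limma.

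Other miRNAs among the smallest unadjusted p lie outside these lists, apart from miR-486, which is in the erythroid list. MiR-19b-3p, of the miR-17-92 cluster, was 5.18, 5.07, 5.39 and 5.35 in Sham and 4.80, 4.61, 4.85 and 4.98 in YQFM, a ratio of -0.44 ± 0.16 (SE). MiR-378b was 7.31, 7.06, 7.07 and 7.16 in Sham and 7.04, 6.79, 6.85 and 6.67 in YQFM. MiR-486, which is found in muscle and in red blood cells, was 7.95, 7.61, 7.70 and 7.72 in Sham and 7.36, 7.53, 7.47 and 7.34 in YQFM. The treated arrays were all below Sham for the 3 of them, which are also among the 16 above. The ratios were -0.31 for miR-378b and -0.32 for miR-486. The erythroid list holds miR-486 as its only member detected on all 8 arrays. The summed signal of the list was 7.72 to 8.04 in Sham and 7.47 to 7.71 in YQFM, which largely repeats miR-486. Of the 4 members, 2 were on no array well above background, and the part of red blood cells in the result was not tested. MiR-451-5p, the defining miRNA of red cells, was at the floor on 2 Sham and 2 YQFM arrays.

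**Figure D3:**
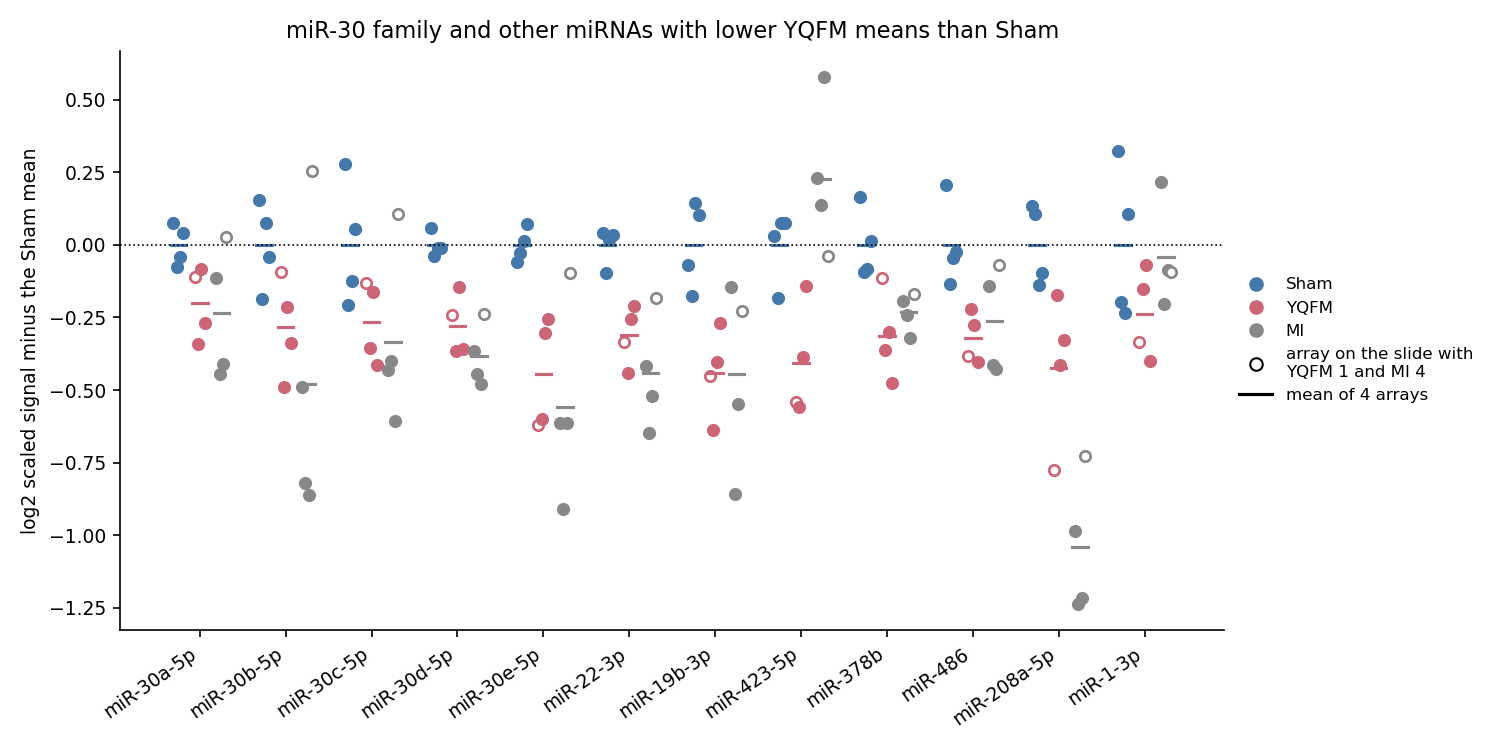
Log2 scaled signal of each array minus the Sham mean for the miR-30 family, 6 other miRNAs with lower YQFM means and the muscle miRNA miR-1-3p. Points are single rats, bars are means of 4, open points are YQFM 1 and MI 4, which shared a slide, and the other MI arrays lay on a slide of their own. Every YQFM point of miR-30e-5p, miR-30d-5p, miR-22-3p and miR-19b-3p lies below every Sham point, by small steps. This separation was not kept with scaling over all miRNAs or with quantile normalization.

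The largest negative ratio belonged to miR-1224, which lies within the span of Vwa5b2. It was 11.29, 11.16, 10.72 and 11.55 in Sham and 10.91, 10.38, 10.73 and 10.33 in YQFM, and Sham replicate 3 lay below 2 of the treated arrays. The ratio was -0.59 ± 0.19 (SE, unadjusted p = 0.00852, adjusted p = 0.723 by limma), with an interval from -1.01 to -0.18, and -0.70 on the shared slide. MiR-702-3p was 5.10, 4.96, 4.77 and 4.66 in Sham and 4.59, 4.57, 4.85 and 3.62 in YQFM. Its ratio of -0.47 ± 0.27 (SE) rested largely on YQFM replicate 4, and was -0.21 without it. The other 3 among the smallest p, miR-200c-5p, miR-200b-5p and miR-678, had ratios of -0.44, -0.48 and -0.25. The first pair are minor arms of the epithelial miR-200 family, and both lay at or near the floor, with miR-200c-5p at 2.38 on Sham replicate 1 and YQFM replicates 1 and 3.

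The 4 miRNAs higher in YQFM at an unadjusted p under 0.05 had wide spreads within both groups. MiR-466c-3p was 5.94, 4.59, 3.74 and 4.41 in Sham and 5.39, 5.42, 6.56 and 4.99 in YQFM. MiR-466b-2-3p, its neighbor in Sfmbt2, was 6.26, 5.20, 4.15 and 4.77 in Sham and 5.80, 5.70, 6.95 and 5.42 in YQFM. Sham replicate 1 lay above 3 of the 4 treated arrays for both, and YQFM replicate 3 was the highest of all. The ratios were 0.92 ± 0.41 (SE, interval 0.04 to 1.80) and 0.87 ± 0.40 (interval 0.01 to 1.74), and 0.99 and 0.93 on the shared slide, where their intervals reached below 0.

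MiR-32-3p, the minor arm of miR-32, was 4.50, 3.05, 3.60 and 3.44 in Sham and 3.99, 4.36, 5.09 and 3.90 in YQFM. MiR-672-5p was 3.81, 2.38, 2.54 and 2.95 in Sham and 3.60, 3.72, 4.39 and 2.89 in YQFM. Both had the same high arrays as the miR-466 pair, Sham replicate 1 and YQFM replicate 3, and their ratios were 0.69 ± 0.30 and 0.73 ± 0.33 (SE). With the fewer arrays of the shared slide the ratios were 0.80 for miR-32-3p and 0.75 for miR-672-5p, and none of the 4 had an unadjusted p under 0.05. MiR-672-5p was well above background on 1 of 4 Sham and 4 of 4 YQFM arrays, and no miRNA was detected on all arrays of 1 group and on none of the other.

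The miRNAs called between MI and Sham were then read in the treated hearts. Both contrasts use the same Sham arrays, so their values are placed side by side without a test between them. The MI arrays shared no slide with Sham, while YQFM replicates 2 to 4 did. Infarction and slide cannot therefore be told apart in the MI ratios. Of the 29 miRNAs called between MI and Sham, 27 (10.3% of those tested) were lower and 2 (0.766%) higher in MI, with log2 ratios from -1.12 to 0.79 and a median of -0.63. The same 29 had YQFM to Sham ratios from -0.44 to 0.15 with a median of -0.18, and 0 were called. The shared-slide median was -0.09 over the 28 that could be fitted there. Of the 29, 23 were detected on all 8 Sham and YQFM arrays. The medians over all tested miRNAs were -0.05 for MI and -0.11 for YQFM.

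The most lowered in MI was miR-6317, at -1.12 in MI and -0.31 in YQFM. MiR-92b-3p was 4.94, 5.11, 4.77 and 4.67 in Sham, 4.26, 4.86, 4.91 and 4.65 in YQFM and 3.70, 3.51, 3.37 and 4.46 in MI. Its treated arrays overlapped Sham except for replicates 1 and 4, and its ratios were -1.11 in MI and -0.20 in YQFM. MiR-133c, a relative of the muscle miRNA miR-133, had ratios of -0.61 and -0.12, and miR-1-5p, the minor arm of miR-1, of -0.71 and -0.21. For miR-208a-5p they were -1.04 and -0.42. The ratios lay closer together for miR-30e-5p (-0.56 and -0.44), miR-22-3p (-0.44 and -0.31), miR-30d-5p (-0.38 and -0.28) and miR-652-5p (-0.51 and -0.26). The 2 higher in MI, miR-743a-3p and miR-878, passed the filter through MI alone and were not well above background on any Sham or YQFM array, so that their YQFM ratios of -0.03 and 0.00 carry no information on a difference.

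**Figure D4:**
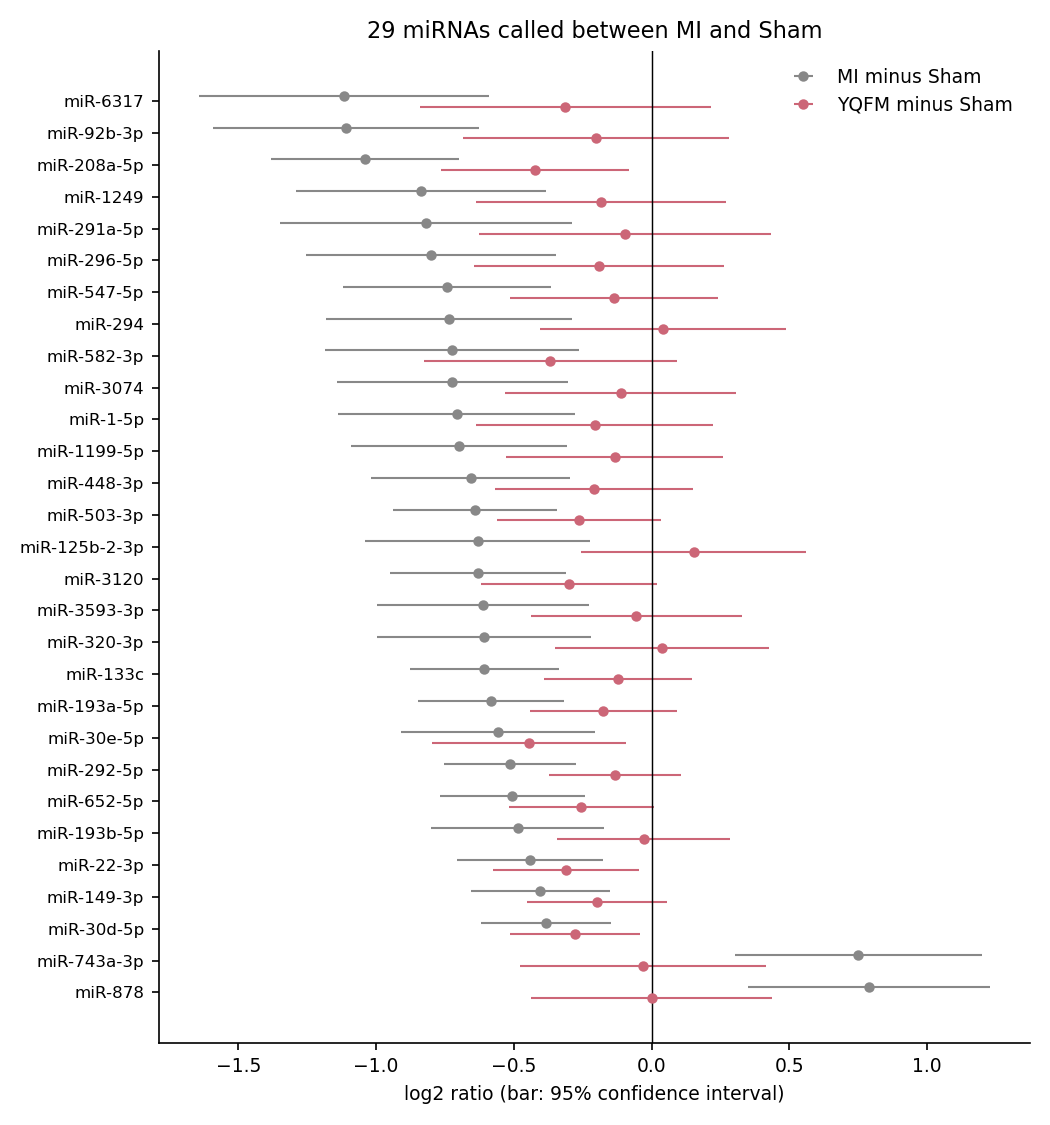
Log2 ratios to Sham of the 29 miRNAs called between MI and Sham, for MI (gray) and YQFM (red), with 95% confidence intervals. The 29 were chosen by the gray values, both contrasts share the Sham arrays, and the red values run from -0.44 to 0.15. The MI arrays shared no slide with Sham, while YQFM replicates 2 to 4 did.

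Among the other lists, families abundant in many cell types had medians that changed sign without YQFM replicate 1. The let-7 and miR-98 family had 9 of 9 members tested, 0 called, and a median ratio of 0.03, which became -0.12 on the shared slide. For miR-23, miR-27 and miR-24 (5 of 5 tested, 0 called) the median was 0.15 and then -0.02, for miR-26 (2 of 2, 0 called) 0.09 and -0.04, and for miR-99, miR-100 and miR-125 (5 of 5, 0 called) 0.06 and -0.07. For the miR-15 and miR-16 group (5 of 6, 0 called) it was 0.06 and -0.04. In each, the median without YQFM replicate 1 stood closer to the median of all tested miRNAs on that slide, -0.14.

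Markers of other cells gave no call. The leukocyte list had 5 of 8 members tested, a median of 0.06 and -0.05 on the shared slide, a summed signal of 8.44 to 8.66 in Sham and 8.43 to 8.74 in YQFM, and 3 members, among them both arms of miR-142, well above background on no array. The endothelial list, led by miR-126a-3p, had 3 of 4 tested and medians of 0.00 and -0.04. Its highest member, miR-222-3p, was 3.06, 3.32, 3.17 and 3.22 in Sham and 4.14, 3.42, 3.35 and 3.23 in YQFM, and it was well above background on 0 Sham and 3 YQFM arrays. Its ratio was 0.34 ± 0.21 (SE) and 0.14 on the shared slide. The smooth muscle list of miR-143 and miR-145 had 2 of 4 tested and medians of -0.14 and -0.22. The miR-29 family, known to repress collagens, had 3 of 3 tested and medians of -0.11 and -0.13, and the stress and hypoxia list 2 of 5 tested and medians of -0.05 and -0.19. The miR-92 family (2 of 2 tested) had a median of -0.19, and the metabolic and failure-linked list, which holds miR-22-3p and miR-423-5p, had 4 of 4 tested and a median of -0.25, with 0 called.

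**Figure D5:**
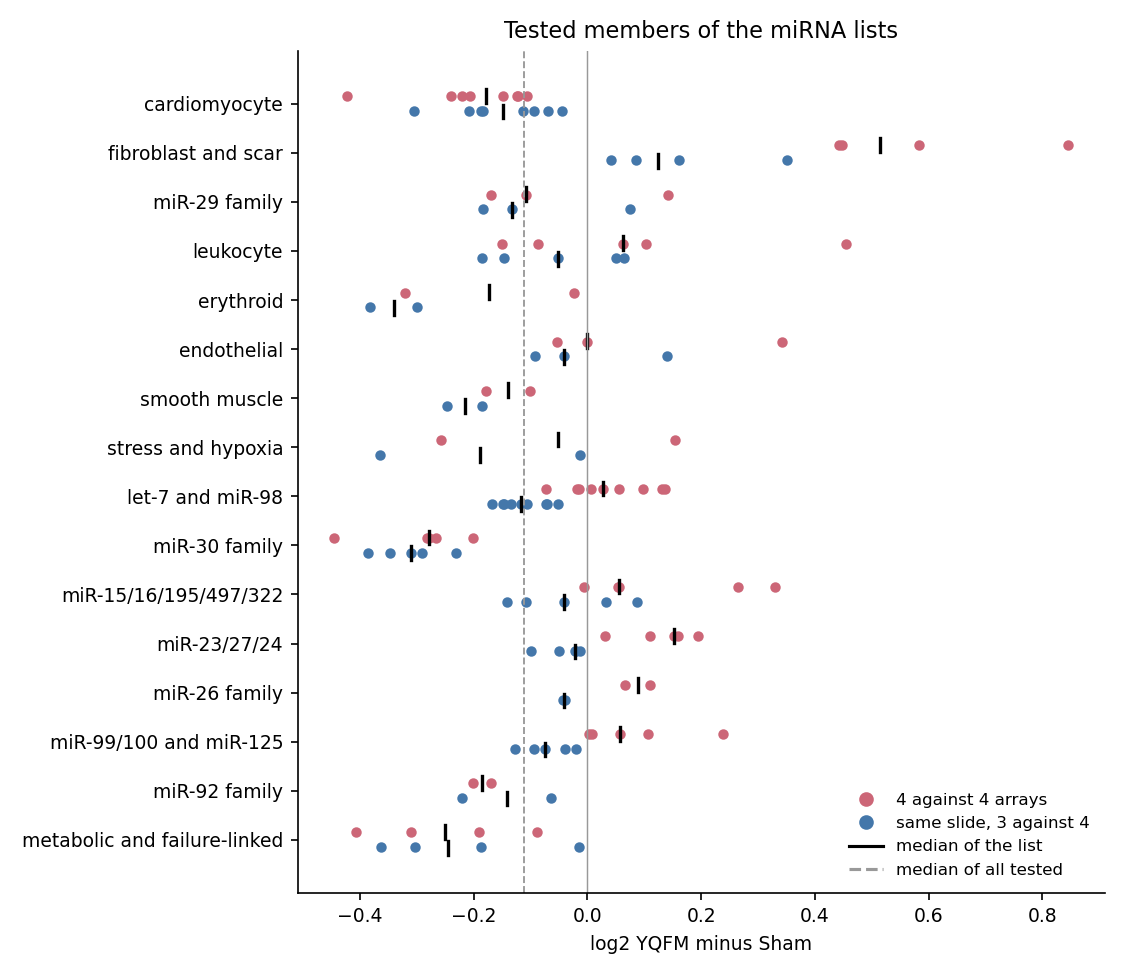
Log2 ratio of YQFM to Sham for the tested members of each list, with all 8 arrays (red) and on the shared slide (blue). Short black bars are list medians and the dashed line is the median of all tested miRNAs, -0.11. The fibroblast and scar list moves from 0.52 to 0.12, and the miR-30 family stays near -0.28 and -0.31.

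The 7 miRNAs that the study took as reversed by YQFM were dim in both groups. They had been chosen for levels that differed from MI in both Sham and YQFM, so that likeness between YQFM and Sham was part of their choice. MiR-216b-5p exceeded background on 6 of the 8 arrays and miR-21-3p on 1, whereas miR-702-5p, miR-542-3p, miR-466c-5p, miR-381-3p and miR-219a-2-3p did so on 0. Only miR-216b-5p passed the filter, with 3.01, 3.17, 2.38 and 3.43 in Sham and 2.38, 3.20, 3.06 and 2.85 in YQFM. Its ratio was -0.12 ± 0.22 (SE), with an interval from -0.59 to 0.34. The scaled signals of miR-21-3p, the minor arm of miR-21, were 3.53, 4.67, 3.39 and 4.08 in Sham and 4.96, 4.33, 4.33 and 4.31 in YQFM, below the floor of 5.20 on every array. The other 6 did not pass the filter and were not fitted by limma. Some of their scaled signals lay above the floor, for example miR-381-3p at 10.4 on Sham replicate 1. Exact permutation tests of the scaled signals gave a two-sided p of 0.143 or more for each, and 0.45 or more after Benjamini-Hochberg adjustment. Since these signals were not called well above background on most arrays, they carry little information on a difference.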

How the data were processed

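MiRNA expression was measured in 12 rats on single-color (Cy3) Agilent rat miRNA arrays, after extraction with the mirVana kit, and the 4 YQFM and 4 Sham arrays were compared. Scanner files made with Agilent Feature Extraction 10.7.1.1 were deposited for all arrays, in which each spot has a background-subtracted intensity that was not scaled between arrays. A deposited table of processed intensity values was used as an alternative. The normalization within GeneSpring is not given in the sources used here. All array columns were matched to a sample.

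Control spots and spots flagged as outliers (902 to 1035 of 12128 spots on the 8 arrays) were left out. Intensities were averaged per probe and then per miRNA, and the 201 miRNAs detected on every one of the 12 arrays gave a 75th percentile by which each array's values were divided, times the mean of these percentiles. Lower values were raised to a floor of 5.20 (log2 2.38), and values at the floor have no order. A probe was detected when over 50% of its spots were well above background. Of 758 miRNAs, 263 were detected on at least 2 arrays of a group. Of these, 2 lay at the floor on all arrays and were left out of the fit, a step chosen after seeing the data, which left 261. Arrays have no read depth, and precision is limited by their number.

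Groups were compared by limma 3.58.1 (R 4.3.3) over all 12 arrays, two-sided, with Benjamini-Hochberg adjustment. The script was tested on simulated data. Tables and figures used Python 3.11.15, pandas 2.3.3 and matplotlib 3.10.9. The labels number the replicates without naming animals, so p-values measure the spread between these arrays, taken as 1 rat each. A list is described by its counts and median.

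The miRNAs and lists were chosen with earlier results of these data known. The rule named the study's 7 miRNAs, the 15 with the smallest p if none was called, the 5 largest ratios each way among miRNAs detected on all 8 arrays, those called between MI and Sham, the 5 smallest p on the shared slide, the list members, and those detected in all of 1 group and none of the other. The 9 miRNAs high on YQFM replicate 1, the 16 without overlap and miR-125b-5p were named after their values were seen. RT-PCR, echocardiography and cell experiments were not analysed here.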

Additional observations from a re-analysis of the deposited data

Results flagged for a closer look

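Among 38 miRNAs followed singly, the 4 arrays of each group were searched for a single array that stood apart, by Dixon's criterion for 4 values. Of 76 groups examined, 11 held such an array, where chance gives about 1 in 20, and miRNAs measured on the same array are not independent. In 8 of the 11 the array was YQFM replicate 1, always as the highest of its group. Its log2 signal was 9.34 for miR-21-5p, 6.32 for miR-199a-5p, 8.74 for miR-199a-3p, 8.59 for miR-214-3p, 6.73 for miR-140-3p, 5.95 for miR-140-5p, 5.66 for miR-3588 and 10.04 for miR-125b-5p. Most of these miRNAs had been named because this array was high. The other 3 were Sham arrays. MiR-21-5p was lowest on Sham replicate 2, at 7.40, and miR-200c-5p was lowest on Sham replicate 1, at the floor of 2.38. MiR-31a-5p was highest on Sham replicate 3, at 3.44, where the rest of its group lay at the floor.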

How the results depend on the processing

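Over 27 alternatives, 0 miRNAs were called between YQFM and Sham under each, and the smallest adjusted p ran from 0.181 to 0.999. The number with an interval within 2-fold, 241 of 261 in the main fit, stayed within 1.5 times its value under each alternative run, which is a wide tolerance. It was clearly lower with the total gene signal and with the authors' processed values, and higher with normexp. The bound on the size of the differences therefore depends on the processing. The difference in detected miRNAs kept its direction. The 16 miRNAs at an unadjusted p under 0.05 became 4 (3 higher) with the total gene signal, 9 (4 higher) with the brightest probe, 3 (3 higher) with the authors' processed values, 9 (7 higher) with the percentile over all miRNAs, 8 (5 higher) with quantile normalization and 5 (5 higher) without scaling. There were 0 higher with normexp (11 in all), no filter (18), the gene detected flag (17), the 8 arrays alone (13) and the methods' t-test (23). The same held on the shared slide (14) and without the 2 arrays with conflicting labels. Among the other alternatives with the scaling unchanged, some kept miRNAs that were higher. The count was 15 (5 higher) with the floor divided by 4 and 12 (2 higher) with only miRNAs detected on all 8 arrays. It was 14 (2 higher) with the replicate number as a block. The cause of the changing split was not tested. Leaving out each array in turn gave 6 to 19 such miRNAs, and without YQFM replicate 2 there were 6, without Sham replicate 3 there were 7, and without Sham replicate 1 or 4 there were 10. Leaving out each array gave 0 called, 235 to 243 within 2-fold, and a difference in detected miRNAs of 7.17 to 14.8. Keeping the 2 miRNAs that lay at the floor on all arrays, an alternative added after seeing the data, gave 0 called and 15 at an unadjusted p under 0.05.

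Of the 38 miRNAs followed singly, 25 kept the sign of their log2 ratio under each alternative run. With normexp the ratio turned to 0.0025 for miR-208a-5p, 0.015 for miR-200c-5p, 0.024 for miR-200b-5p, 0.023 for miR-1-5p, 0.022 for miR-6317 and 0.018 for miR-216b-5p. With the total gene signal it turned to 1.78 for miR-200b-5p, -0.037 for miR-672-5p, -0.91 for miR-3588, -0.53 for miR-146b-5p and 0.54 for miR-216b-5p. With the authors' processed values it turned to 1.05 for miR-200c-5p, 0.037 for miR-133c and 0.15 for miR-216b-5p, and without scaling to 0.034 for miR-133c. On the shared slide, with slide as a block and without YQFM replicate 1 it turned to -0.22 for miR-140-3p, -0.28 for miR-140-5p, -0.019 for miR-125b-5p and 0.042 for miR-216b-5p. These settings share the ratio by design, since YQFM replicate 1 was the only YQFM or Sham array off that slide, and they are not separate checks of it. Leaving out each array in turn gave -0.22 to 0.45 for miR-140-3p, -0.28 to 0.28 for miR-140-5p, -0.019 to 0.34 for miR-125b-5p and -0.33 to 0.042 for miR-216b-5p. Without the 2 arrays with conflicting labels, and without Sham replicate 4, it was 0.022 for miR-216b-5p. The cause was not tested.

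The replicate numbers did not pair the arrays, since the deviations of same-numbered YQFM and Sham arrays correlated at -0.06, 0.24, -0.64 and 0.32. With the replicate number as a block there were 0 called and 14 at an unadjusted p under 0.05.

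Signal over background limits what can be seen, since 476 of the 758 miRNAs were detected on none of the 8 arrays. With 4 rats against 4, intervals reached a median of 0.37 to either side on the log2 scale among miRNAs detected on all 8 arrays. On the shared slide, the first position code and group cannot be told apart, and infarction and drug cannot be told apart in this comparison.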
